A study of Mus musculus with 70 samples.

Results

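The 9 genes described here, Pcp2, Calb1, Pvalb, Car8, Itpr1, Slc1a6, Aldoc, Plcb3 and Plcb4, were chosen by name as markers of Purkinje cells and their zebrin bands and were read in bulk RNA-Seq libraries of mouse brain regions. The choice was made with earlier results of these data known. All 9 genes were found by symbol among the 34677 genes of the gene-level table, and all 9 passed the filter on low counts. The atlas held 70 libraries in 24 groups: 57 libraries from 18 adult regions of male C57BL/6NTac mice at postnatal day 56, 9 from 4 regions of C57BL/6NTac embryos at E14.5, each library pooled from several embryos, and 4 from the C57BL/6 embryonic stem cell clones mESC B6-1 and mESC B6-2. No group carried a transgene, and the mice were not treated. The stem cells were cultured with LIF and, before collection, with added small-molecule inhibitors. The 5 cerebellar groups were CENT2 (central lobule II, 4 libraries), CUL4,5 (culmen lobules IV and V, 4), UVU (uvula, 3), FL (flocculus, 4) and CBN (the cerebellar nuclei, 3). An adult library was made from punches of frozen sections pooled from 3 or 4 mice, with 1 exception in ACB, so a library is a pool and not an animal. The adult mice were fewer than the adult libraries, so regions shared mice, and p-values measure the spread between pools that were treated as independent. The study lists collection batches for each region, the same for CENT2 and FL and partly others for UVU, CUL4,5 and CBN, but the list carries no replicate numbers, so no within-batch value is given.

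Purkinje cells are the only output neurons of the cerebellar cortex, and their axons end mainly in the cerebellar nuclei and, from the flocculus and parts of the vermis, in the vestibular nuclei. They are alike in shape but fall into parasagittal bands named after zebrin II, which is aldolase C, the product of Aldoc. Zebrin-positive Purkinje cells also carry phospholipase C beta 3 and more of the glutamate transporter encoded by Slc1a6, whereas zebrin-negative cells carry phospholipase C beta 4. Zebrin-negative bands are wide in the anterior lobules, while the uvula and flocculus are mostly zebrin-positive. Both phospholipases act below the metabotropic glutamate receptor mGluR1 and produce the messenger that opens the calcium channel encoded by Itpr1. Aldoc is also a gene of astrocytes, so it is not particular to Purkinje cells.

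Levels are given in TPM, a transcript abundance that is scaled within each library and by transcript length and can be compared between genes. Total estimated counts were 13409041 to 19070652 in the cerebellar libraries and 14201960 to 20647884 in the other adult ones. Markers of other cell types were high in FL and CBN. The 6 oligodendrocyte markers summed to 8691 to 11701 TPM in FL and 11140 to 18327 in CBN, against 1360 to 3731 in the libraries of CENT2, CUL4,5 and UVU. The 6 markers of nuclear and hindbrain projection neurons summed to 509.7 to 2013 TPM in FL and 2117 to 2310 in CBN, against 151.5 to 329.4 in those 3 regions. Choroid plexus markers, led by Ttr, ran from 36.5 to 3048 TPM in FL, from 9.96 to 2102 in UVU and from 3523 to 12663 in CBN. Their part in the results was not tested. In bulk tissue, fewer cells of a type and less RNA per cell cannot be told apart.

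Promoter sequence is shown for Pcp2, against which the other genes are set as ratios, and for Slc1a6, Aldoc and Plcb3. These 3 genes were higher in UVU and FL joined than in the anterior lobules, but none was so in FL against both lobules singly. The sequences are from RefSeq (GRCm38.p6) and run 5′ to 3′ on the strand of the gene, upstream of the start nearest to that of the leading transcript, with annotated exon bases left out. They cover chr8:3625050-3625209 (minus strand, Pcp2), chr10:78780246-78780495 (plus, Slc1a6), chr11:78323948-78324061 (plus, Aldoc) and chr19:6969815-6970064 (minus, Plcb3). The printed bases end 136 bases before the start site for Aldoc, 13 before it for Pcp2, and directly before it for Slc1a6 and Plcb3. The stretches of Pcp2, Aldoc and Plcb3 lie within the annotated extents of these genes. Capitals mark AGGTCA on either strand, the core sequence bound by the nuclear receptor encoded by Rora, which Purkinje cells need to mature.
Pcp2: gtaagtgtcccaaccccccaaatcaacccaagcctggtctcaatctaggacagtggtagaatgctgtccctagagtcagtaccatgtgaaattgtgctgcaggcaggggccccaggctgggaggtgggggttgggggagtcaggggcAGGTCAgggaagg
Slc1a6: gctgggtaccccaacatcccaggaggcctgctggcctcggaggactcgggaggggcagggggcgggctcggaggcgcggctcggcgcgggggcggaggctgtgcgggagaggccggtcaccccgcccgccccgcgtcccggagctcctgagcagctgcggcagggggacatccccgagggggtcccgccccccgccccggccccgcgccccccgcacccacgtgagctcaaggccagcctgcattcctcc
Aldoc: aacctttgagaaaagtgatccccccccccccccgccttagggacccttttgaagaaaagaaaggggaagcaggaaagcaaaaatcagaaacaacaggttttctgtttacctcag
Plcb3: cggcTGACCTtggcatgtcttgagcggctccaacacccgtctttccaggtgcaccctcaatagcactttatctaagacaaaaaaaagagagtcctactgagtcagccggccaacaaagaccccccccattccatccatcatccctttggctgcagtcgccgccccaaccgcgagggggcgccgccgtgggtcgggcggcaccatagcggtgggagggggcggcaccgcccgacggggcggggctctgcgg
Within the full windows of 300 bases, Pcp2 held AGGTCA 26 bases before its start site and Plcb3 held its reverse complement 246 bases before it, and no match was found for Slc1a6, Aldoc or Pvalb. AGGTCA on either strand occurs in 16.3% of all 32851 promoter windows. Plcb4 is not shown because no window lay near the start of its leading transcript.

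The 9 genes are single loci on GRCm38 in the GENCODE annotation. Pcp2 is on chromosome 8 (3623371 to 3625545, minus strand), Calb1 on chromosome 4 (15881264 to 15908064, plus), Pvalb on chromosome 15 (78191114 to 78206400, minus) and Car8 on chromosome 4 (8143362 to 8239041, minus). Itpr1 is on chromosome 6 (108213096 to 108551109, plus) and Slc1a6 on chromosome 10 (78780496 to 78814765, plus). Aldoc is on chromosome 11 (78322968 to 78327781, plus), Plcb3 on chromosome 19 (6952325 to 6976470, minus) and Plcb4 on chromosome 2 (135659011 to 136014593, plus). Pcp2 overlaps Pet100, and the annotated extent of Plcb3 overlaps Ppp1r14b, each on the opposite strand. The libraries were strand-specific, but whether strand was used in counting is not given in the sources used here. Pet100 had 90.8 to 116 TPM on average in the 4 cortical regions, far below Pcp2, whereas Ppp1r14b, with 31.9 to 45.9 TPM, was as high as Plcb3. Plcb3-201, the only Plcb3 transcript with counts, starts next to its promoter sequence at 6969815 to 6970064. It runs on the minus strand away from Ppp1r14b, which begins at 6974968, so only the annotated gene extents overlap.

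Across the adult brain, the question was how far these genes mark the cerebellar cortex. Of the 9 genes, 8 were higher in the 4 cortical regions than in the 13 other adult regions, where 8.49% of the 19980 genes tested were higher and 10% lower by the same rule (adjusted p under 0.05 in edgeR's quasi-likelihood test and an absolute log2 fold change above 1). The median log2 fold change was 3.25 over the 9 genes and 0.00 over all genes. Since the genes were chosen as Purkinje cell markers, the count describes them and is no independent support. Pcp2, a modulator of G protein signalling found in Purkinje cells and retinal bipolar cells, had the largest fold, 371 (log2 fold change 8.54 ± 0.14 SE, adjusted p = 1.17e-44). Car8, a carbonic anhydrase relative without enzyme activity that binds the Itpr1 channel, was 72.6-fold higher (log2 fold change 6.18 ± 0.09 SE). Pvalb, a calcium buffer that interneurons also use, was 19.99-fold higher, Itpr1 11.6-fold, Slc1a6 9.54-fold and Calb1, another calcium buffer, 6.49-fold. Plcb3 and Plcb4 differed the least of the 8, at 3.13-fold and 3.08-fold. Aldoc was 1.801-fold higher (log2 fold change 0.85 ± 0.08 SE, adjusted p = 4.27e-13) and missed the fold minimum, although it passed it in limma on log2(TPM + 0.5), with a log2 difference of 1.01.

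**Figure D1:**
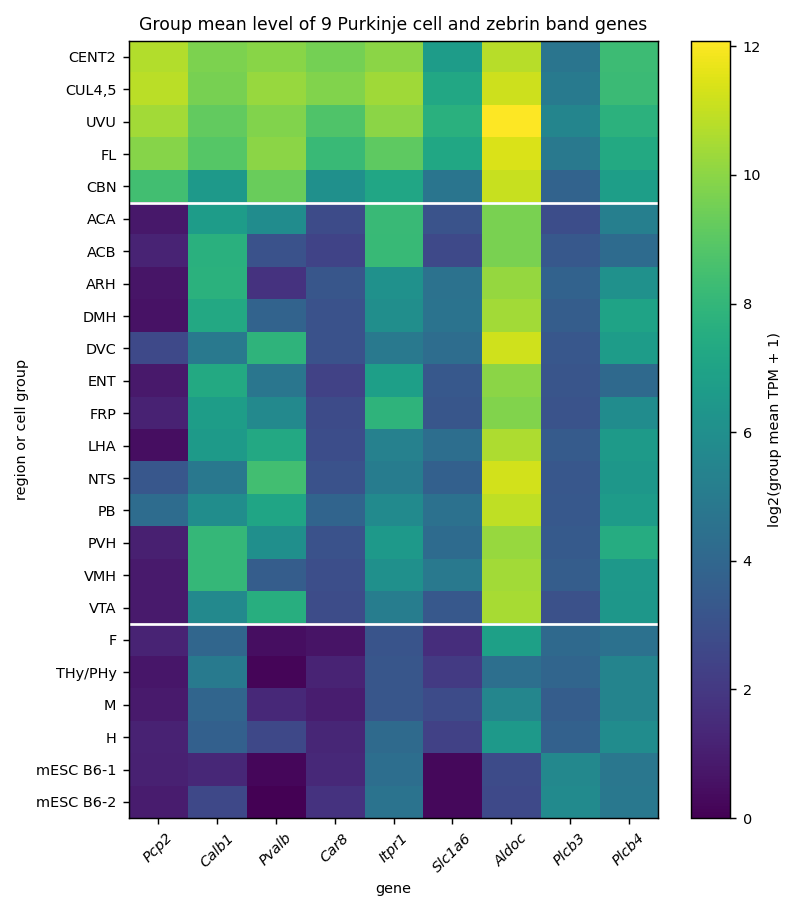
Group mean levels of the 9 genes in all 24 groups, as log2(group mean TPM + 1), with the cerebellar regions on top, then the other adult regions, then the embryonic regions and mESC lines, separated by white lines. Pcp2 and Car8 are high in the 5 cerebellar groups and low elsewhere, while Aldoc is high in every adult region.

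Outside the cerebellum, Pcp2 ranged from 0.183 to 42.6 TPM over 39 adult libraries with a median of 0.970. The highest group was the parabrachial nucleus (PB), where the 3 libraries held 42.6, 7.22 and 4.64 TPM, followed by NTS at 8.84 ± 3.57 (SD, n = 4) and DVC at 5.44 ± 3.40 (SD, n = 3). The order of these 3 hindbrain groups did not exceed their spread. PB replicate 1 stood apart, and it also held 25.9 TPM of Car8, against 9.51 and 6.73 in the other PB libraries, and 3.05 TPM of the granule cell gene Gabra6, against 0.0836 and 0.349. The granule cell gene thus moved with Pcp2 in PB, but not in DVC, where replicate 2 held 3.40 TPM of Gabra6 and 4.16 of Pcp2. The part of granule cells in the Pcp2 level was not tested. In the remaining adult groups no library passed 1.68 TPM of Pcp2.

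The other members had second regions of their own. Calb1 reached 266 ± 43.2 TPM in VMH and 266 ± 32.2 in PVH (SD, n = 2 each), values that cannot be ordered. Pvalb reached 341 ± 86.6 TPM in NTS (SD, n = 4) and 234 ± 62.2 in DVC (SD, n = 3). Itpr1 stood at 288 ± 31.1 TPM in ACA and 285 ± 39.8 in ACB (SD, n = 3 each), above the 142 of CBN. Slc1a6 reached only 28.4 ± 0.541 TPM in VMH (SD, n = 2). Aldoc held 2424 ± 113 TPM in NTS (SD, n = 4) and 2360 ± 170 in DVC (SD, n = 3), both between FL and CUL4,5 in the order of means and within the library range of CUL4,5. Plcb4 reached 179 ± 12.8 TPM in PVH (SD, n = 2), between UVU and FL. Plcb3 was highest of all 24 groups in the mESC lines, with 51.1 and 56.1 TPM in the libraries of B6-2 and 48.0 and 49.1 in those of B6-1, above every cerebellar library. In the embryonic regions, where the cerebellar cortex has not formed, Pcp2 lay between 0.610 and 1.63 TPM, Car8 between 0.538 and 1.65 and Aldoc between 14.55 and 148 TPM.

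In the cerebellar nuclei, where Purkinje cell axons end, Pcp2 was lower than in the cortex and above the rest of the adult brain. Pcp2 held 230.4, 291 and 514 TPM in the 3 CBN libraries, below the lowest cortical library (686 TPM in FL) and above all 39 other adult libraries. Of the 9 genes, 3 (Pcp2, Pvalb and Car8) were higher in CBN than in the 13 other adult regions, with folds of 105.5, 14.4 and 10.2, where 8.74% of genes were higher and 4.85% lower. Of all genes called there, 64.3% were higher in CBN, against 51.8% in limma on log2(TPM + 0.5). Calb1 was not higher there (log2 fold change -0.22 ± 0.23 SE, adjusted p = 0.492). Against the cortex, 6 of the 9 were lower in CBN, where 5.47% of genes were lower and 11% higher. In this comparison 66.9% of all calls were higher in CBN, against 43.8% in limma on log2(TPM + 0.5), where the median gene moved by -0.11. The levels of Calb1, Car8, Itpr1 and Slc1a6 in CBN were 0.132, 0.140, 0.165 and 0.197 of those in the cortex, compared with 0.284 for Pcp2. Plcb3 fell to 0.488 of its cortical level (log2 fold change -1.04 ± 0.11 SE, adjusted p = 2.9e-11), and this call was lost without CBN replicate 2, at -0.98. Plcb4 differed by a log2 fold change of -0.95 ± 0.14 SE and missed the fold minimum. Pvalb was at 0.720 of its cortical level (log2 fold change -0.47 ± 0.23 SE, adjusted p = 0.0771), and Aldoc at 0.901 (log2 fold change -0.15 ± 0.18 SE, adjusted p = 0.53). Against the cortex, granule cell markers were lower in CBN too (10 of 10), and all 6 markers of projection neurons were higher. Against the 13 other adult regions, the granule cell genes Gabra6, Fat2, Cbln3 and Neurod1 were 523-, 206-, 112- and 11.4-fold higher in CBN (edgeR). In the order of libraries given for Pcp2, Gabra6 held 28.7, 55.7 and 84.8 TPM in CBN. The part of cortical cells within the CBN punches was not tested.

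The comparison on which the zebrin genes bear is that of the uvula and flocculus with the anterior lobules. Aldoc held 1671, 1754, 2081 and 1500 TPM in CENT2 and 1986, 2853, 2310 and 2154 TPM in CUL4,5. In UVU it held 4795, 4042 and 4204 TPM, and in FL 3081, 2646, 2769 and 2319 TPM. Every UVU library lay above every anterior and FL library, and FL lay above CENT2 but overlapped CUL4,5. Plcb3 held 24.1, 27.7, 23.0 and 25.1 TPM in CENT2, 29.8, 30.6, 32.6 and 26.1 in CUL4,5, 44.9, 46.1 and 41.6 in UVU, and 33.5, 28.4, 30.2 and 21.6 in FL. The UVU libraries again stood apart, and FL overlapped both anterior groups.

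Slc1a6, a Purkinje cell glutamate transporter, held 77.7, 115, 107 and 100.1 TPM in CENT2, 133, 163, 176 and 138 in CUL4,5, 238, 174 and 194 in UVU, and 202, 138, 143 and 92.0 in FL. UVU lay above CENT2 and overlapped CUL4,5 through 1 library on each side. Plcb4, the zebrin-negative gene, held 255, 302, 311 and 361 TPM in CENT2, 306, 298, 320.4 and 291 in CUL4,5, 209, 229 and 223 in UVU, and 183, 162, 152 and 144 in FL. All 7 libraries of UVU and FL lay below all 8 anterior libraries. Pcp2 held 1222, 1941, 1778 and 1576 TPM in CENT2, 1708, 1981, 1746 and 1823 in CUL4,5, 1599, 1282 and 1237 in UVU, and 1131, 958, 1055 and 686 in FL. Its UVU libraries lay within the range of CENT2, and its FL libraries below every other cortical library.

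**Figure D2:**
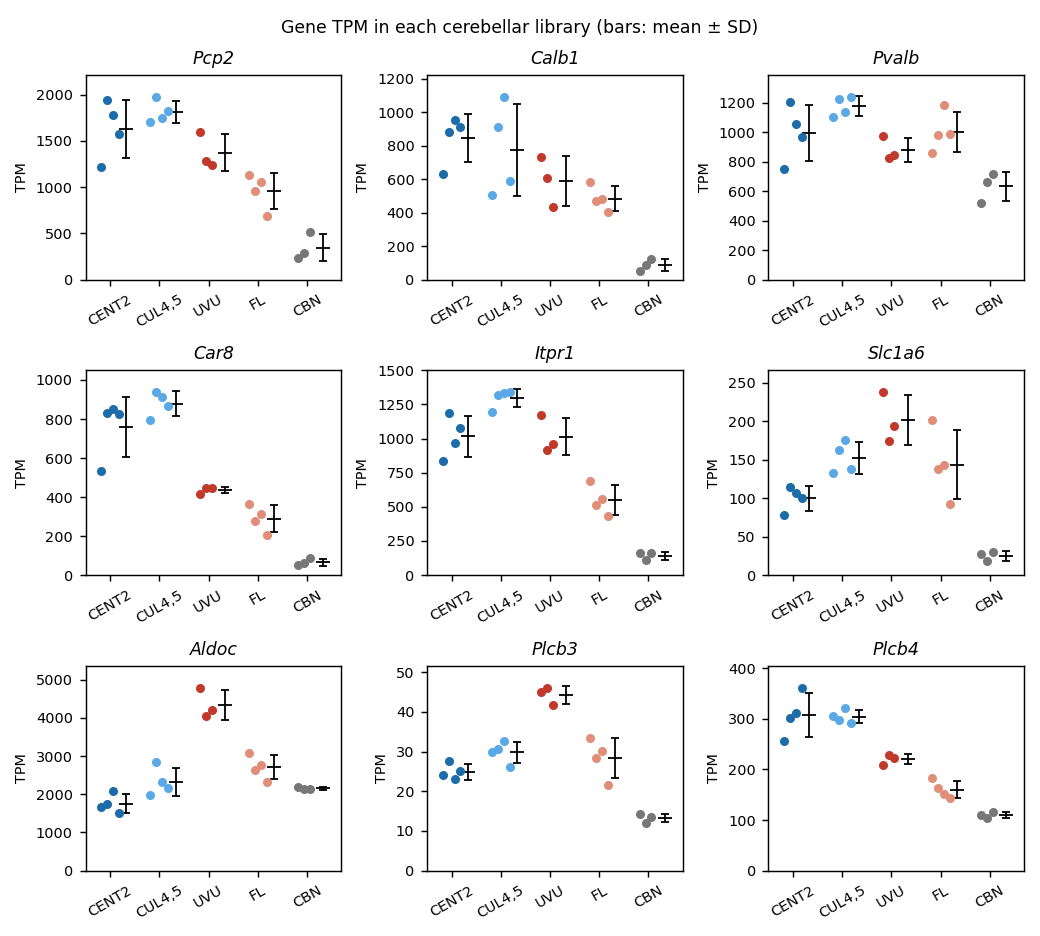
TPM of each of the 9 genes in every cerebellar library, by region, with 1 point per library and the mean ± SD beside the points. Aldoc and Plcb3 are highest in the 3 UVU libraries, Plcb4 and Car8 are lower in UVU and FL than in CENT2 and CUL4,5, and CBN is lowest for 8 of the 9 genes.

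With UVU and FL joined against CENT2 and CUL4,5, 3 of the 9 genes were higher and 5 lower at an adjusted p under 0.05 (edgeR), where 6.53% of genes were higher and 6.35% lower. The 3 that rose were Aldoc (1.74-fold, log2 fold change 0.80 ± 0.15 SE, adjusted p = 6.06e-05), Slc1a6 (1.42-fold, 0.50 ± 0.13 SE, adjusted p = 0.00597) and Plcb3 (1.34-fold, 0.42 ± 0.08 SE, adjusted p = 0.000171). Car8 fell the most, to 0.447 of its anterior level (log2 fold change -1.16 ± 0.15 SE, adjusted p = 5.17e-08), with 416, 445 and 447 TPM in UVU, 364, 278, 314 and 204 in FL, and 532 to 938 in the 8 anterior libraries. The groups did not overlap for Car8 or Plcb4 and overlapped for the other 7 genes. The share of all genes without overlap is not given here, so this only describes the members. Plcb4 fell to 0.653 (log2 fold change -0.61 ± 0.11 SE, adjusted p = 2.07e-05) and Itpr1 to 0.678 (log2 fold change -0.56 ± 0.13 SE, adjusted p = 0.00224). Pcp2 (log2 fold change -0.54, adjusted p = 0.0391) and Calb1 (-0.57, adjusted p = 0.0446) were just within the threshold, and their calls were lost in 10 and 11 of the 15 fits that left out 1 library. With FL left out of the contrast, a comparison chosen after seeing the data, Aldoc, Slc1a6, Plcb3 and Car8 were called and the other 5 genes were not. In limma on log2(TPM + 0.5), Pcp2, Calb1 and Slc1a6 were not called (adjusted p = 0.199, 0.249 and 0.164).

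In UVU alone, 3 genes were higher and 1 lower than in CENT2, where 1.30% of genes were higher and 4.26% lower. Aldoc was 2.41-fold, Slc1a6 2.01-fold and Plcb3 1.77-fold higher (adjusted p = 3.1e-05, 0.000244 and 2.96e-06), and Car8 was at 0.570 (adjusted p = 0.0137), a call that was lost without any 1 of the 3 UVU libraries (adjusted p = 0.0536 to 0.0611). Itpr1 was at 0.997 of its CENT2 level, with an approximate 95% interval of the log2 fold change from -0.39 to 0.38. Against CUL4,5, Aldoc (1.83-fold, adjusted p = 0.0101) and Plcb3 (1.499-fold, adjusted p = 0.00144) were higher and Car8 (0.4999, adjusted p = 0.00288) was lower in UVU, where 1.34% of genes were higher and 1.57% lower. The Aldoc call was lost without UVU replicate 1 (adjusted p = 0.0973) and in limma on log2(TPM + 0.5) (adjusted p = 0.11). Slc1a6 was 1.33-fold that of CUL4,5 (adjusted p = 0.415). Plcb4 did not pass in UVU against either lobule (log2 fold change -0.35 and -0.40, adjusted p = 0.259 and 0.232), although no library overlapped, and it passed in both when the cerebellar libraries were fitted alone (adjusted p = 0.0167 and 0.011).

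In FL, 2 genes were higher and 4 lower than in CENT2, where 9.71% of genes were higher and 10.9% lower. Aldoc (1.66-fold) and Slc1a6 (1.51-fold) were higher, and Car8 (0.400), Plcb4 (0.561), Itpr1 (0.592) and Pcp2 (0.622) lower. The Slc1a6 call was lost without CENT2 replicate 1 or FL replicate 1, and the Pcp2 call in 5 of 8 such fits. In limma on log2(TPM + 0.5), Aldoc, Slc1a6 and Pcp2 were not called (adjusted p = 0.111, 0.24 and 0.17), so that no member was called higher in FL, and of all genes called 36.6% were higher in FL, against 47.1% in edgeR. Against CUL4,5, 5 of the 9 were lower in FL and 0 higher (edgeR), where 2889 of 19980 genes (14%) were lower and 2992 (15%) higher. Of all genes called there, 50.9% were higher in FL, against 36.0% in limma on log2(TPM + 0.5). Among the 4 genes not called, Aldoc had an adjusted p of 0.226, or 0.0145 with the cerebellar libraries fitted alone. Car8 stood at 0.350, Itpr1 at 0.462, Plcb4 at 0.543, Calb1 at 0.549 and Pcp2 at 0.574 of the CUL4,5 level, and without FL replicate 4 the Pcp2 and Calb1 calls were lost (adjusted p = 0.0581 and 0.052). Plcb3 differed from CUL4,5 by a log2 fold change of 0.02 with an interval from -0.20 to 0.25. FL replicate 4 had the lowest level of 8 of the 9 genes in FL and the highest Nefh, a neurofilament of large projection neurons, at 559.8 TPM against 136 to 367 in the other FL libraries.

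FL against UVU tests whether these regions differ from each other. There 9.96% of all genes were lower in FL and 10.5% higher (51.4% of all calls, against 37.3% in limma on log2(TPM + 0.5)). Of the 9 genes, 3 were lower and 0 higher in FL (edgeR). They were Itpr1 (0.594, adjusted p = 0.00363), Plcb3 (0.678, adjusted p = 0.000538) and Plcb4 (0.715, adjusted p = 0.0178), and the Plcb4 call was lost without UVU replicate 2 or 3 or FL replicate 4. Aldoc did not pass (0.687, adjusted p = 0.0645), except with the cerebellar libraries alone (adjusted p = 0.00432) and in DESeq2 (adjusted p = 0.0485). Between the anterior lobules, Slc1a6 was 1.51-fold higher in CUL4,5 than in CENT2 (adjusted p = 0.0435), the single member called where 0.475% of genes were higher and 4.31% lower. That call was lost in 5 of 8 fits that left out 1 library.

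**Figure D3:**
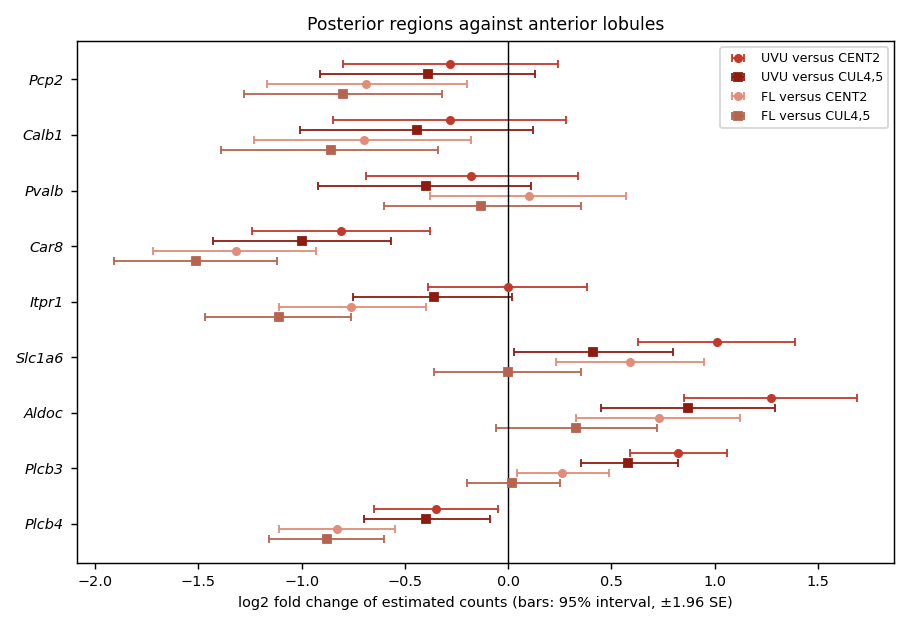
log2 fold changes of estimated counts for UVU and FL against CENT2 and CUL4,5 (edgeR), 1 point per gene and comparison, with approximate 95% intervals as bars. The title calls UVU and FL posterior only for short. Aldoc, Plcb3 and Slc1a6 lie to the right in UVU, Car8 lies to the left in all 4 comparisons, and the FL values of most genes lie to the left of the UVU values.

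Ratios of genes within a library do not depend on how the libraries are scaled to each other. The 6 ratios were compared between the 7 libraries of UVU and FL and the 8 of CENT2 and CUL4,5, as log2 of TPM with 0.5 added. The test was an exact two-sided permutation over 6435 groupings, with p-values adjusted over the 6. It treats libraries as exchangeable, although they belong to 4 regions. Its p-values thus measure the spread between pools and not between regions. Aldoc per Pcp2 was 110% ± 21.4 in CENT2 and 128% ± 13.04 in CUL4,5 (SD, n = 4 each), against 318% ± 20.1 in UVU (SD, n = 3) and 287% ± 34.4 in FL (SD, n = 4). Plcb3 per Pcp2 was 1.57% ± 0.293 and 1.65% ± 0.196 in the anterior lobules, against 3.26% ± 0.404 in UVU and 2.99% ± 0.123 in FL. Slc1a6 per Pcp2 was 6.17% ± 0.221 in CENT2 and 8.42% ± 1.15 in CUL4,5, against 14.7% ± 1.05 in UVU and 14.8% ± 2.07 in FL. For these 3 ratios every library of UVU and FL lay above every anterior one. In all 3 the library ranges of UVU and FL overlapped, unlike in the levels of Aldoc and Plcb3. For Aldoc per Pcp2 only FL replicate 4, at 338%, reached the UVU range of 300% to 340%.

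The differences in log2 ratio to Pcp2 were 1.35 for Aldoc, 1.03 for Slc1a6 and 0.95 for Plcb3, each with an exact permutation p of 0.000311, the smallest this design allows, and an adjusted p of 0.000373. The ratios to Plcb4 differed as much: Plcb3 to Plcb4 by 1.05 and Aldoc to Plcb4 by 1.45, with the same exact p and adjusted p and with no overlap. Plcb4 per Pcp2 was 19.2% ± 3.32 in CENT2, 16.8% ± 1.58 in CUL4,5, 16.3% ± 2.81 in UVU and 17.1% ± 2.79 in FL. Its log2 difference was -0.10 (exact permutation p = 0.376, adjusted p = 0.376), within the spread of the libraries, whose SDs were 0.225 and 0.211. Thus Plcb4 RNA was lower in UVU and FL, but per Pcp2 no difference was detectable. In CBN, where Pcp2 was lower than in the cortex and markers of other cells were high, the ratios to Pcp2 were 701% ± 272 for Aldoc, 4.30% ± 1.77 for Plcb3 and 35.4% ± 12.5 for Plcb4 (SD, n = 3), means above those of UVU and FL. Slc1a6 per Pcp2 was 7.92% ± 3.39 in CBN, with a mean below those of UVU and FL. Aldoc to Plcb4 was 19.6 ± 1.08 in CBN (SD, n = 3), 19.8 ± 2.77 in UVU (SD, n = 3) and 16.9 ± 0.974 in FL (SD, n = 4), and Plcb3 to Plcb4 was 0.120 ± 0.00814, 0.201 ± 0.0142 and 0.177 ± 0.0202. The ratios of Aldoc, Plcb3 and Plcb4 to Pcp2, but not that of Slc1a6, were thus also high in tissue with less Pcp2, and the part of other cells in the FL ratios was not tested.

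**Figure D4:**
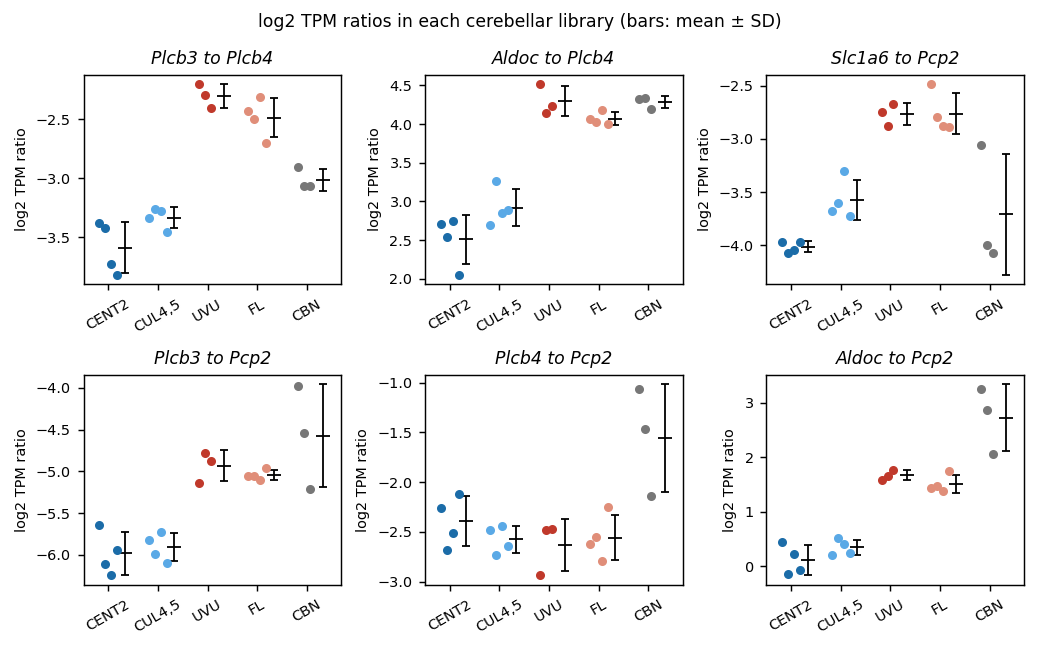
log2 TPM ratios of 6 gene pairs in each cerebellar library, with 1 point per library and the mean ± SD beside the points. In 5 of the 6 panels all UVU and FL points lie above all CENT2 and CUL4,5 points, and in the panel of Plcb4 to Pcp2 they overlap.

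Other genes of the bands were taken as fixed lists, chosen with earlier results of these data known. Of 5 tested zebrin-positive genes, 2 were higher in UVU and FL than in the anterior lobules and 0 lower (edgeR), beside 6.53% and 6.35% of all genes, with a median log2 fold change of 0.03 against -0.01 over all genes. They were Kctd12, an auxiliary subunit of GABAB receptors (mean 61.5 TPM against 37.1, adjusted p = 8.65e-05), and Hspb1, a small heat shock protein (mean 31.9 TPM against 16.9, adjusted p = 0.00145). Gabbr2, Ncs1 and Sphk1 had adjusted p-values of 0.406, 0.964 and 0.787. In UVU alone, Kctd12 was called against CENT2 and CUL4,5 (edgeR adjusted p = 2.23e-05 and 0.0259). Hspb1 was called against neither (adjusted p = 0.409 and 0.0955). Prkcd lacked complete counts, and on the TPM scale its difference was 0.36 in limma (adjusted p = 0.414). Ebf2, a transcription factor of zebrin-negative cells, fell from 9.21 to 3.02 TPM (log2 fold change -1.58 ± 0.18 SE, adjusted p = 2.77e-09). Ebf2 did not overlap between the groups, and it was also lower in UVU alone against CENT2 (adjusted p = 7.6e-06) and CUL4,5 (adjusted p = 1.43e-05).

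Of the 19 other Purkinje cell genes tested, 14 were lower in UVU and FL and 0 higher (median log2 fold change -0.54), where 6.35% of all genes were lower. In UVU alone 1 was lower than in CENT2 and 3 than in CUL4,5, where 4.26% and 1.57% of all genes were lower. Rgs8, a regulator of G protein signalling, changed most, from 679.8 to 272 TPM (log2 fold change -1.31 ± 0.11 SE, adjusted p = 3.93e-13), and it was called in UVU against CENT2 as well (0.92 lower on the log2 scale, adjusted p = 5.4e-05). Of 17 tested genes of mGluR1 signalling and calcium release, 10 were lower and 0 higher (median log2 fold change -0.38), beside the same 6.35% of all genes. Besides Rgs8 these included the scaffold Homer3 (log2 fold change -0.73) and the calcium pump Atp2a3 (-0.67), with adjusted p-values of 1.68e-05 and 9.51e-06. The Purkinje cell and mGluR1 lists share genes, among them Rgs8, Homer3 and Atp2a3. In FL against CUL4,5, 18 of 19 Purkinje cell genes were lower (median log2 fold change -0.91), where 14% of all genes were lower and 15% higher.

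Of 14 tested relatives of the members, 2 were higher and 3 lower in UVU and FL than in the anterior lobules (median log2 fold change -0.08), where 6.53% of all genes were higher and 6.35% lower. Aldoa, the general aldolase, stood between 1655 and 1728 TPM on average in the 4 cortical regions. In CENT2 the means of Aldoa and Aldoc were close, at 1655 and 1751 TPM, and in UVU Aldoa, at 1670 TPM, was well below the 4347 TPM of Aldoc. Plcb1 held 26.9 to 29.6 TPM, which in UVU was below the 44.2 TPM of Plcb3, and Plcb2 0.421 to 0.625. Itpr2 and Itpr3 lay at 3.86 to 10.2 TPM, far below Itpr1 at 549.6 to 1298. Among glutamate transporters, Slc1a3 of Bergmann glia was higher than Slc1a6 in all 4 regions, at 325 to 710.1 TPM.

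Since astrocytes also use Aldoc, their markers are given beside it. The 12 markers of Bergmann glia and astrocytes summed to 2105 to 2466 TPM in UVU, 2006 to 2526 in CENT2, 2395 to 2427 in CUL4,5 and 2065 to 2273 in FL, so their sum overlapped between UVU and CENT2 where Aldoc did not. None of the 12 was called between UVU and CENT2 or UVU and CUL4,5 (edgeR). There 1.30% and 1.34% of all genes were higher and 4.26% and 1.57% lower, so few calls would be due in a list of 12. In FL against CENT2, 3 were higher and 2 lower (edgeR), where 9.71% of all genes were higher and 10.9% lower. Gfap, an intermediate filament of astrocytes (2.80-fold, adjusted p = 5.89e-06), Fgfr3 (1.53-fold) and Slc1a2 (1.30-fold) rose, and Slc1a3 (0.604) and Gli1 (0.567) fell. In FL against UVU, Gfap (2.80-fold) and Fgfr3 (1.63-fold) were higher and Slc1a3 (0.586), Gdf10 (0.506) and Gli1 (0.601) lower. There 10.5% of all genes were higher and 9.96% lower. In the joined contrast Gfap was higher (1.78-fold) and Slc1a3 and Gli1 lower, beside 6.53% and 6.35% of all genes. The sum of the list thus held members that went opposite ways in FL. Of the 10 granule cell markers, 0 were called in UVU against CENT2 or CUL4,5, beside the shares of all genes given above. Their sums were 3901 to 4665 TPM in UVU. Of 3 unipolar brush cell markers, Eomes and Lmx1a were called higher in UVU than in CENT2 and CUL4,5, and the other marker was not. Eomes held 39.5 ± 9.19 TPM in UVU (SD, n = 3) against 14.4 ± 6.08 in CENT2 (SD, n = 4). In these comparisons 1.30% and 1.34% of all genes were higher. Calb2 was called in neither, at 300 TPM in UVU against 350 in CENT2 and 518 in CUL4,5. In the joined contrast Calb2 was lower (0.612, edgeR adjusted p = 0.0154). Of 9 markers of molecular layer interneurons and Golgi cells, 2 were higher and 1 lower in UVU and FL than in the anterior lobules (median log2 fold change -0.18), where 6.53% of all genes were higher and 6.35% lower. The part of these cells in the Aldoc and Plcb3 levels was not tested.

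**Figure D5:**
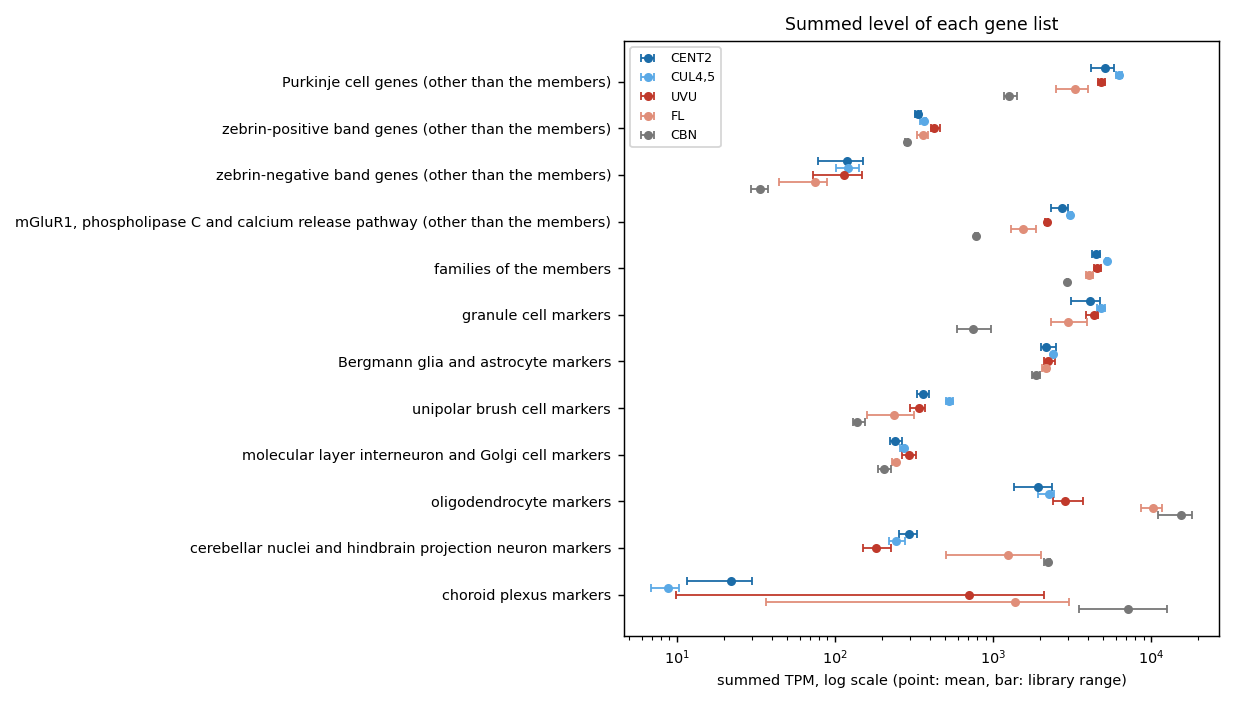
Summed TPM of each gene list in the 5 cerebellar regions on a log axis, with the mean as a point and the lowest and highest library as a bar. Oligodendrocyte markers are higher in FL and CBN, and the sum of Bergmann glia and astrocyte markers lies in a narrow range over the 4 cortical regions, although single markers such as Gfap and Slc1a3 went opposite ways in FL.

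The genes with the most similar patterns were found by Pearson correlation of log2(TPM + 1), as a description. Over the 24 group means, Pcp2 was closest to Cbln3 (r = 0.983), Gabra6 (0.982), Crtam (0.977), Fat2 (0.973) and Hes3 (0.967) among 13731 genes. Cbln3, Gabra6 and Fat2 are granule cell genes, which share with Pcp2 a high level in all 5 cerebellar groups. The points of all these comparisons share libraries and depth. Over the 15 cortical libraries and 11038 genes, Plcb4 was closest to Mapre2 (0.970), Ppp3ca (0.968), Car8 (0.967), Pde9a (0.967) and Rgs8 (0.964). Plcb3 was closest to the carbonic anhydrase gene Car7 (0.948), followed by Zfp536 (0.900), Eepd1 (0.892), Cnnm4 (0.872) and Kctd12 (0.870). Car7 held 29.95 ± 3.94 TPM in CENT2, 45.9 ± 7.90 in CUL4,5, 87.4 ± 12.3 in UVU and 42.9 ± 13.2 in FL (SD, n = 4, 4, 3 and 4).

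Aldoc was closest to the homeobox gene Tlx3 (0.911), followed by Colq (0.897), Pigs (0.896), Kctd12 (0.892) and Elmo1 (0.889). Tlx3 held 17.51 ± 4.08 TPM in UVU, 2.72 ± 1.87 in FL, and 0.384 ± 0.472 and 0.0205 ± 0.0410 in CUL4,5 and CENT2. Colq averaged 10.65 TPM in UVU, 3.36 in FL, 0.753 in CUL4,5 and 0.538 in CENT2. Among the cortical regions, both averaged the 10 TPM asked of compared genes only in UVU, where Aldoc was also highest. Their ranks thus lean on that filter and on the UVU libraries, and are no support for a link with Aldoc. Pigs begins 634 bases past the end of Aldoc on the same strand, and Spag5 ends 511 bases before Aldoc. Spag5 was also highest in UVU, with 49.7 ± 4.93 TPM (SD, n = 3) against 21.1 ± 3.74 in CENT2 and 26.8 ± 4.84 in CUL4,5 (SD, n = 4 each). Pigs held 73.8 ± 6.33 TPM in UVU, 48.0 ± 4.03 in CENT2 and 53.5 ± 4.18 in CUL4,5. Aldoc and both neighbours on chromosome 11 were thus highest in UVU among the cortical regions. Whether reads past the ends of Aldoc bear on its neighbours was not tested.

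The transcripts behind a gene level differed in kind. Car8 and Plcb3 each had 1 annotated transcript with counts, and Pvalb-201 and Slc1a6-201 held 99.0% and 99.8% of their genes' TPM in the cortical regions. Aldoc-202 held 62.2% of Aldoc and went from 1075 TPM in CENT2 to 2637 in UVU, and the processed transcripts Aldoc-206 and Aldoc-204 moved the same way. Pcp2-205 held 59.0% of Pcp2, and Itpr1-205 held 52.2% of Itpr1. For Calb1, the coding transcript Calb1-201 held 47.2%, and 2 retained-intron transcripts the rest. In CUL4,5 the Calb1 gene level of 505, 914, 1094 and 587 TPM was widely spread, whereas the coding transcript held 374, 465.9, 443 and 405 TPM and the retained-intron transcripts 131, 448, 652 and 182. The spread of Calb1 between these libraries thus sat in the retained-intron transcripts. How surely short single reads can be assigned to these overlapping transcripts was not tested.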

How the data were processed

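Messenger RNA from 70 samples was made into strand-specific libraries and read as short single reads. The authors quantified transcripts with Kallisto on Ensembl GRCm38 cDNA, after base calling with CASAVA 1.8.2, as the labels' processing notes also list. They deposited estimated counts per transcript, which were not normalized, and TPM values per transcript and, summed, per gene. Here, the estimated counts of 107987 of 109282 transcripts matched to GENCODE M21 were summed per gene and rounded. The 9 genes' transcript TPM equalled the gene TPM. Prkcd lacked complete counts and was taken from TPM. Results for some listed genes are not reported here.

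Counts were tested with edgeR 4.0.16 (TMM, filterByExpr, quasi-likelihood test with Benjamini-Hochberg adjustment) in R 4.3.3, with all 70 libraries and 24 groups in 1 model. A gene was called when its adjusted p was under 0.05 and, for the size of the log2 change, more than 1 in the 3 comparisons across cerebellar cortex, CBN and other adult regions. The fit was tested on simulated data. Ratios were tested by exact permutation in SciPy 1.17.1. Other alternatives used DESeq2 1.42.0, no filter, a replicate block, the cerebellar libraries alone, limma 3.58.1 on log2(TPM + 0.5) or log2(TPM + 0.1), and each cerebellar library left out. FL left out of a contrast was added after seeing the data. The members and gene lists were chosen with earlier results of these data known. Beside the 9 members, genes were named as the 5 most correlated with Pcp2 (24 group means) or with Aldoc, Plcb3 and Plcb4 (15 libraries) among those with at least 10 TPM, as list genes with the largest changes, and as relatives. No pair of cerebellar replicates agreed within counting noise (mean chi-square per gene of at least 4.89). Pseudocounts were 0.5 TPM for ratios. VTA replicate 1 had 39.6% of its TPM from mitochondrial genes, against a median of 7.49%.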

Additional observations from a re-analysis of the deposited data

Results flagged for a closer look

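Of 63 groups of 4 libraries examined for a library far from the rest, by gene or ratio, 3 held one. That is about the share of 1 in 20 that chance gives. In CENT2 replicate 1, Car8 held 532 TPM against 826 to 852 in the other 3 libraries, and Pcp2, Calb1, Pvalb, Itpr1, Slc1a6 and Plcb4 were also lowest there. In CUL4,5 replicate 1, Itpr1 held 1197 TPM against 1320 to 1341 in the other 3. In NTS replicate 1, Itpr1 held 43.1 TPM against 29.1 to 30.7 in the other 3.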

How the results depend on the processing

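The directions and calls of the 6 ratios were the same in all 108 alternative values: a pseudocount of 0.1, estimated counts, FL left out and each library left out. Of 1431 alternative values for single genes, 1313 kept direction and side of the threshold, and of 159 counts of genes called, 141 stayed within 1.5 times. For UVU and FL against CENT2 and CUL4,5, 8 genes were called, with 5 in limma on log2(TPM + 0.5) or log2(TPM + 0.1) and 4 with FL left out of the contrast. For FL against CENT2 and against CUL4,5, where 6 and 5 were called, limma called 3 with either pseudocount and none of them was higher in FL. UVU against CUL4,5 gave 1 in place of 3 with log2(TPM + 0.1). The Slc1a6 call between CUL4,5 and CENT2 was lost (0 genes) with the cerebellar libraries alone and in both limma fits. The causes were not tested. Leaving out 1 library gave 3 to 5 genes for CBN against other adult regions (5 without CBN replicate 2, where Itpr1 and Slc1a6 passed the fold minimum), 3 to 5 for FL against CUL4,5 (3 without FL replicate 4) and 0 to 1 for CUL4,5 against CENT2 (0 without CENT2 replicate 1 or 4 or CUL4,5 replicate 2, 3 or 4).

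The values that changed sign lay near 0 and were not called in edgeR as reported. Without a filter Itpr1 in UVU versus CENT2 was 0.01 (-0.12 to 0.07 with 1 library left out). Slc1a6 in FL versus CUL4,5 was 0.03 with the cerebellar libraries alone and 0.01 in DESeq2 (-0.17 to 0.14), and Plcb3 there was -0.08 in both limma fits (-0.04 to 0.12). In CUL4,5 versus CENT2, limma gave -0.18 for Calb1 and -0.01 for Plcb4 with either pseudocount, and leaving out 1 library gave -0.01 to 0.20 for Pcp2 and -0.03 to 0.10 for Plcb4. Leaving out 1 library gave -0.51 to 0.02 for Calb1 in CBN versus other adult regions and -0.02 to 0.20 for Pvalb in FL versus CENT2. Plcb4 in CBN versus cerebellar cortex passed the fold minimum in limma on log2(TPM + 0.5) (-1.11).

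Limits. In limma on log2(TPM + 0.5) the median gene moved by -0.11 between CBN and cortex (0.03 in edgeR), and the share of calls that were higher was 36.6% against 47.1% in edgeR for FL versus CENT2 and 36.0% against 50.9% for FL versus CUL4,5. Replicate numbers are not tied to collection batches in the sources used here. Deviations of libraries with the same number had a median correlation of 0.0149 over 33 pairs (-0.272 to 0.363), and 4 of 18 libraries matched their own number best. With the replicate block the counts of genes called were 8, 3, 6, 8, 4, 3, 6, 5, 3 and 1 over the 10 comparisons, as without it. Groups of 3 or 4 pools limit the calls on single genes.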
